A study of Drosophila melanogaster with 36 samples.

Results

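Segment polarity genes pattern each segment of the fly embryo, and 9 of them were followed here: en, inv, wg, hh, ci, ptc, nkd, gsb and mid. They were chosen by name as members of that class. They are 9 of the 10226 genes listed at any of 3 collection times. The tables list a gene at a time only if it is above 0 in all 12 libraries of that time. By that rule 8 of the 9 genes were listed at 0-1h, all but inv, and all 9 were listed at 1-2h and 2-3h. Each of the 9 genes, at the times it was listed, also passed the filter on low values. That filter was a mean of at least 10 normalized counts over the libraries of the time.

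Embryos of 2 genotypes were compared. The wild-type group was the w1118 stock, described as the pre-injected control. The other group was orb2-delta-zz (orb2∆ZZ), which lacks the ZZ domain, a zinc-binding fold, of Orb2. Orb2 is a CPEB family protein that binds mRNA. Embryos of each genotype were collected 0-1h, 1-2h or 2-3h after egg laying, their lysates were run on a 15-45% sucrose gradient, and RNA of pool 1 and pool 3 of each gradient was sequenced, with 3 replicates in each of the 12 groups and 36 libraries in all. Every group shared the rearing at 25ºC, the lysis in cycloheximide and heparin, the removal of ribosomal RNA and a strand-specific library kit. Each library held many whole embryos, so fewer cells with an mRNA and less mRNA per cell cannot be told apart in these data. Not stated in the labels are the fractions that make up a pool, whether the replicates were separate collections, whether the mothers carried the deletion, or how many lines were used. Pools 1 and 3 of a replicate came from the same gradient, so they are not independent samples of embryos.

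In textbook accounts, segment polarity genes act after the pair-rule genes and fix the borders of each segment around the time the embryo becomes cellular. Cells that express the transcription factor en secrete the ligand Hedgehog, and their neighbours answer through the receptor Patched and the transcription factor Ci and secrete the ligand Wingless, which in turn maintains en. The mRNAs are made by the embryo itself, in stripes, and the mother is known to supply little of most of them.

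The genes lie on 5 chromosome arms of the BDGP6 assembly, with positions from Ensembl's annotation. The ligand gene wg is on 2L from 7307159 to 7316265 and hh is on 3R from 23128169 to 23141906. The receptor gene ptc is on 2R from 8649649 to 8665223, and nkd, which encodes an inhibitor of Wingless signalling, is on 3L from 19003741 to 19045449. The transcription factor gene ci is on chromosome 4 from 47710 to 57041. The homeobox gene en is on 2R from 11524006 to 11528210, and its paralog inv lies 14310 nt away on the opposite strand from 11474465 to 11509695. The Pax family gene gsb is on 2R from 25061964 to 25064643, 9632 nt from its paralog gsb-n, and the T-box gene mid is on 2L from 5461639 to 5467610, 45045 nt from its paralog H15. Counts of these paralog pairs are uncertain to the extent that the authors' quantification shared reads between them. An annotated noncoding gene on the other strand overlaps ci and ptc, and one on the same strand overlaps nkd.

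The normalized counts of a library summed to 21.6 to 47.3 M (median 36.0 M), and the low values put 1 read at 0.59 to 1.75 normalized counts. At 2-3h these sums were 37.1 to 47.3 M in pool 1 and 21.6 to 26.3 M in pool 3. The lowest value of a segment polarity gene rested on about 2 reads, for hh, gsb and inv. At 0-1h, 9 of 48 values in pool 1 and 4 of 48 in pool 3 were under about 10 reads, as were 5 of 54 in pool 1 at 1-2h and none of the other values. The deletion cannot be checked from values per gene. The orb2 gene itself was not called at 0-1h or 1-2h, and in pool 1 at 2-3h it was higher in orb2-delta-zz by 1.06 ± 0.32 (adjusted p = 0.0315). In pool 3 at 2-3h its difference was 0.61 ± 0.32 (limma, adjusted p = 0.205) and was not called. Of 26 markers of late embryos, such as muscle, neuron and cuticle genes, 9, 14 and 18 were listed at 0-1h, 1-2h and 2-3h. The muscle genes Mlc1, wupA, Act79B, Tm2 and TpnC47D were not listed at any time. Of 18 eggshell genes of the mother 0 were listed. The summed level of the late-embryo markers stood furthest apart in 3 gradients. It was 58.9 TPM in pool 1 and 600.9 TPM in pool 3 of orb2-delta-zz replicate 1 at 0-1h, against at most 2.29 and 24.7 TPM in the other replicates of that group. It was 44.9 and 701 TPM in wild-type replicate 2 at 1-2h, against at most 1.54 and 17.9 TPM, and 196 and 1338 TPM in wild-type replicate 2 at 2-3h, against at most 6.90 and 44.2 TPM. Of the orb2-delta-zz gradients at 1-2h it was highest in replicate 3, at 32.5 and 324.7 TPM, against at most 6.16 and 88.8 TPM. Of those at 2-3h it was highest in replicate 2, at 197 and 1237 TPM, against at most 58.0 and 473 TPM. Counts of the 9 genes called between the genotypes are given with and without these gradients, and most other results only with them.

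The order of the 9 mRNAs by level per transcript length was nearly the same in most groups of pool 3. TPM, a level corrected for transcript length and library total, was highest for ci, the effector of Hedgehog signalling, and for ptc and nkd, which encode feedback inhibitors of the Hedgehog and Wingless pathways, and lowest for inv. In wild type at 2-3h in pool 3, ci stood at 434 ± 98.0 TPM (SD, n = 3), ptc at 295 ± 51.1 TPM and nkd at 284 ± 70.1 TPM. The ranges of neighbouring genes among these 3 overlapped, and all 3 lay above every other member. A middle group followed, with mid at 70.0 ± 18.8, wg at 66.3 ± 12.0, gsb at 62.9 ± 17.6 and en at 51.6 ± 14.5 TPM, again with overlapping neighbours. The ligand mRNA hh followed apart from these at 20.5 ± 5.3 TPM, and inv at 4.2 ± 0.532 TPM was below all values of hh. In orb2-delta-zz the same 3 genes led in pool 3 at 2-3h, with ci at 270.0 ± 93.0, ptc at 194 ± 54.0 and nkd at 180.0 ± 52.8 TPM, and inv was last at 1.69 ± 0.832 TPM. At 0-1h the orb2-delta-zz order was not resolved, since all neighbours overlapped in both pools. In pool 1 the order differed, with ci first in every group and ptc and nkd among the others. At 2-3h ci stood there at 31.1 ± 14.1 TPM in wild type, with wg second at 19.7 ± 8.97 TPM, and these 2 ranges overlapped.

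The mRNA levels were far higher at 2-3h than at 0-1h in both genotypes. In wild-type pool 3 the mean TPM at 2-3h was 18.4-fold (en) to 30.8-fold (nkd) that at 0-1h, over the 8 genes listed at both times. For wg, the TPM in the 3 wild-type libraries of pool 3 was 2.01, 4.21 and 3.08 at 0-1h, 11.5, 14.3 and 11.8 at 1-2h and 77.2, 53.5 and 68.4 at 2-3h. The 3 times did not overlap. The orb2-delta-zz values of wg were 3.51, 0.681 and 0.422, then 3.62, 3.49 and 5.02, then 47.5, 33.7 and 23.97 TPM, where replicate 1 at 0-1h fell within the range of 1-2h. Changes over time were tested on log2(TPM + 1), since the normalized counts were scaled separately for each time. This could be done from 0-1h to 1-2h for 7 genes, because inv was not listed at 0-1h and hh had a mean under 1 TPM. The estimates of all 7 were above 0 in both pools of both genotypes. In wild type 6 of 7 were called higher in pool 1 and 7 of 7 in pool 3, where 8.08% and 9.19% of all genes were. In orb2-delta-zz 0 of 7 were called in pool 1 (limma; 2 at an unadjusted p under 0.05, against 49.5% of all genes), where their mean TPM was 1.77-fold to 4.62-fold that at 0-1h. In pool 3 of orb2-delta-zz 5 of 7 were called higher. The shares of all genes called higher in pools 1 and 3 were 7.66% and 6.47%. Leaving out 1 replicate moved the wild-type count in pool 1 to between 2 and 8, with 2 called without wild-type replicate 1 or 2 of 1-2h and 3 without replicate 3 of 0-1h. The orb2-delta-zz count in pool 1 was 2 without its replicate 1 of 0-1h and 4 with a pseudocount of 0.1. The orb2-delta-zz count in pool 3 moved to between 3 and 8, with 3 without replicate 3 of 0-1h and 8 without replicate 1 of 0-1h, where hh passed the filter as well. From 1-2h to 2-3h 8 of 9 were called higher in pool 1 of either genotype, all but inv, and 9 of 9 in pool 3. The mean TPM of inv in pool 1 still rose 2.64-fold in wild type and 6.0-fold in orb2-delta-zz, without overlap between the times. The shares of all genes called higher in that step were 20.2% and 23.0% in wild type and 16.8% and 19.9% in orb2-delta-zz.

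The difference of the later rise between genotypes was not called for any of the 9 genes. In pool 3 the mean of nkd rose 7.09-fold from 1-2h to 2-3h in wild type and 13.2-fold in orb2-delta-zz, and its difference on the log2(TPM + 1) scale was 0.80 ± 0.30 (limma, adjusted p = 0.107). In the same step the hh fold was 4.91 and 11.6. The fold between the mean TPM values was larger in orb2-delta-zz for 9 of 9 genes in pool 3 and for 8 of 9 in pool 1, all but hh. On log2(TPM + 1), where low levels move less, the estimated rise was larger in orb2-delta-zz for 8 of 9 genes in pool 3 and 1 of 9 in pool 1, and the median of its difference in pool 1 turned from −0.31 to 0.32 with a pseudocount of 0.1. For the earlier step the differences of the 7 genes were all below 0, with medians of −0.60 in pool 1 and −0.57 in pool 3, and 0 were called (limma; 0 at an unadjusted p under 0.05 in either pool, against 5.11% and 2.89% of all genes). For the later step, 0 of 9 genes had an unadjusted p under 0.05 in pool 1 and 1 of 9 in pool 3, against 24.1% and 24.5% of all genes. At the adjusted threshold 0.0699% and 0.112% of all genes were called for the earlier step and 5.07% and 5.23% for the later one.

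**Figure D1:**
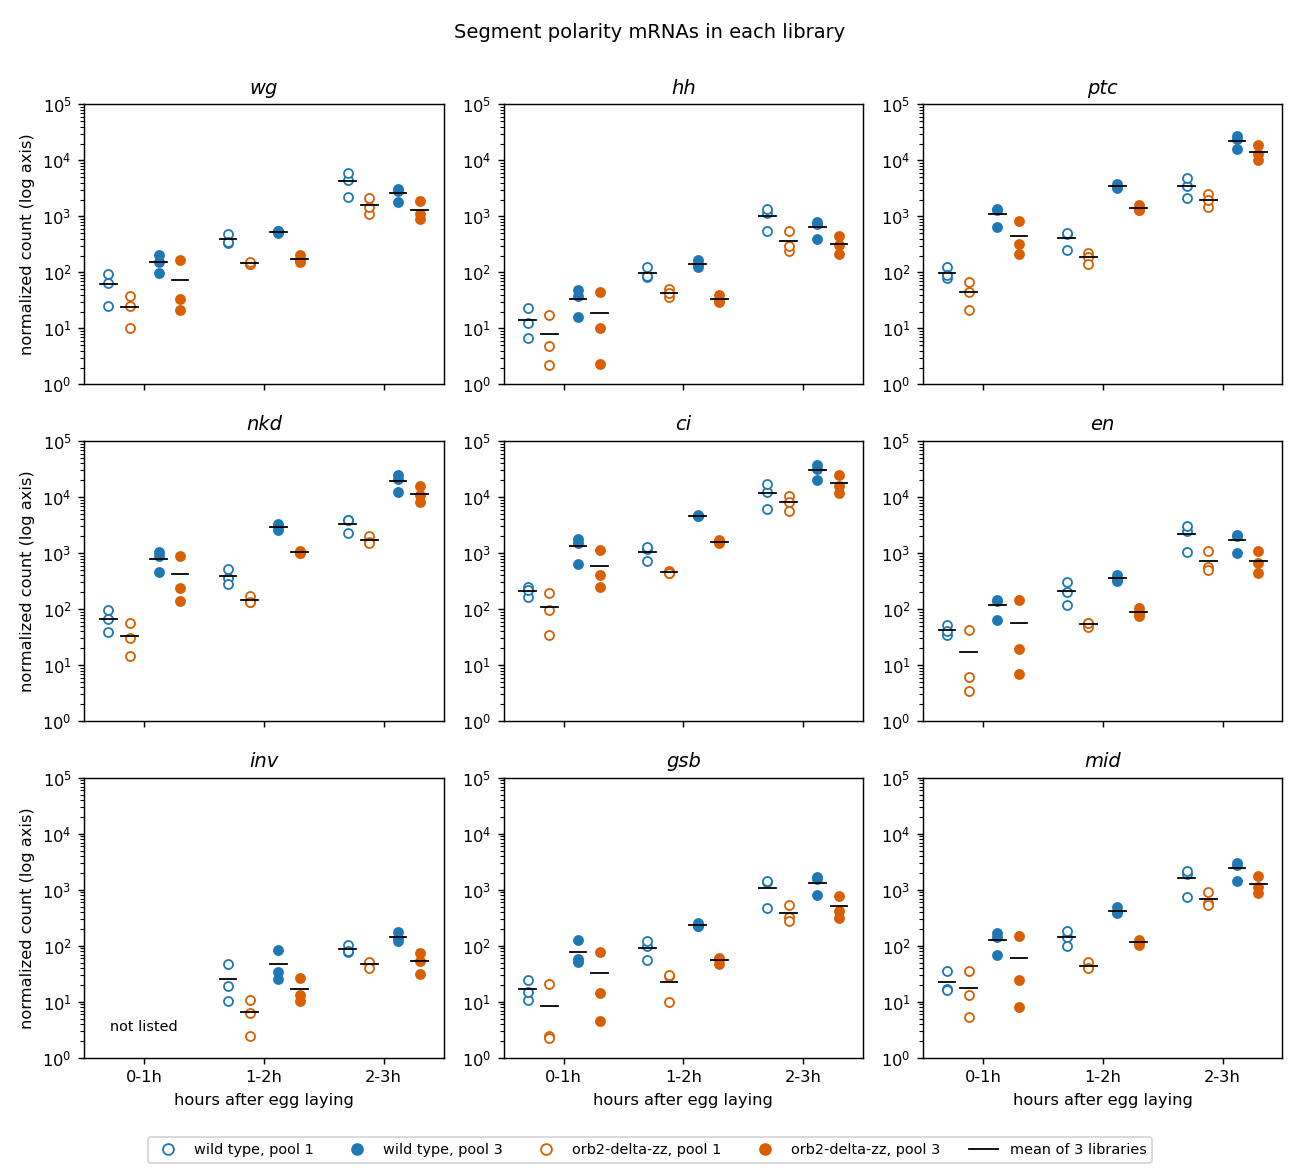
Normalized count of each of the 9 genes (log axis) in every library, by collection time, genotype (colour) and pool (open circles pool 1, filled circles pool 3), with a line at the mean of the 3 libraries. The circles of 2-3h lie above those of 0-1h for the 8 genes listed at both times, and at 1-2h the orb2-delta-zz circles lie below all wild-type circles of their pool for every gene but inv.

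At 1-2h the mRNAs of 8 of the 9 genes, all but inv, were lower in orb2-delta-zz in both pools, and the estimate for inv was below 0 as well. Their means there were 23.3% to 44.3% of the wild-type means. The median log2 difference of the 9 genes was −1.40 in pool 1 and −1.61 in pool 3, where the medians of all genes were 0.11 and 0.07. Over all 8294 genes tested, 4.8% were called lower in pool 1 and 5.04% in pool 3, and 2.15% and 1.77% had a difference at or below the median of the 9 genes. None of the 9 was called higher. The same 8 genes had no overlap between the genotypes, which held in that direction for 10% of all genes in pool 1 and 11.8% in pool 3. Tests were limma's, on log2(normalized count + 1), with Benjamini-Hochberg adjusted p over all genes. Each difference is orb2-delta-zz minus wild type on the log2 scale, with its standard error and n = 3 libraries per group.

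Of the ligand mRNAs, wg in pool 3 at 1-2h stood at 509.6, 545 and 545 normalized counts in wild type and at 164, 156 and 206 in orb2-delta-zz. All 3 orb2-delta-zz libraries were below the lowest wild-type library, a difference of −1.61 ± 0.18 on the log2 scale, adjusted p = 7.93e-05. In pool 1 it was −1.40 ± 0.18 (adjusted p = 0.000262). For hh, the other ligand, the counts in pool 3 were 126, 164 and 139 in wild type and 39.1, 29.5 and 31.5 in orb2-delta-zz. The groups were again apart, by −2.06 ± 0.27 on the log2 scale, adjusted p = 0.000245. In pool 1 the hh difference was −1.16 ± 0.27 (adjusted p = 0.0141), from 84.0, 126 and 87.0 to 50.7, 36.2 and 43.6 normalized counts.

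The receptor gene ptc had the smallest difference of the 8 in either pool. Its counts in pool 3 were 3378, 3760.5 and 3197 in wild type and 1320.2, 1608 and 1307 in orb2-delta-zz, a difference of −1.29 ± 0.25 on the log2 scale, adjusted p = 0.00464. The inhibitor gene nkd, itself a target of Wingless signalling, went from 2593, 3374 and 2937 to 1016, 1090.0 and 1014 normalized counts in pool 3. Its difference was −1.50 ± 0.20 on the log2 scale, adjusted p = 0.000327. The groups did not overlap for either gene in either pool, and in pool 1 the differences were −1.13 ± 0.25 (adjusted p = 0.0105) for ptc and −1.37 ± 0.20 (adjusted p = 0.000727) for nkd.

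Among the transcription factor mRNAs, gsb and en had the largest differences that passed the test. For gsb, which is known to maintain wg expression, the counts in pool 3 were 229, 259.8 and 227 in wild type and 58.5, 48.1 and 60.1 in orb2-delta-zz, a difference of −2.09 ± 0.39 on the log2 scale, adjusted p = 0.00394. For en the counts there were 314, 406 and 340.3 and 106, 76.8 and 84.9, a difference of −1.98 ± 0.29 on the log2 scale, adjusted p = 0.000712. The groups were apart for both genes. The T-box mRNA mid fell from 379, 499 and 403 to 102, 116 and 126 normalized counts in pool 3, by 1.88 ± 0.25 on the log2 scale, adjusted p = 0.000248. The mRNA of ci, the effector of Hedgehog signalling, fell from 4540.5, 4868 and 4548 to 1525, 1744 and 1564, by 1.53 ± 0.18 on the log2 scale, adjusted p = 0.00013. The orb2-delta-zz libraries lay below all wild-type libraries for mid and ci too. In pool 1 the differences were −2.04 ± 0.39 (adjusted p = 0.00469) for gsb, −1.82 ± 0.29 (adjusted p = 0.0013) for en, −1.65 ± 0.25 (adjusted p = 0.000716) for mid and −1.19 ± 0.18 (adjusted p = 0.000982) for ci. The paralog inv was the exception. Its pool 3 counts were 33.5, 84.4 and 25.8 in wild type and 13.4, 10.2 and 26.6 in orb2-delta-zz, and the groups overlapped. Its difference was −1.39 ± 0.68 on the log2 scale, adjusted p = 0.274, the widest standard error of the 9 genes.

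Without the gradient of each genotype that was highest in late-embryo markers at 1-2h, a choice made after seeing the data, 8 of 9 genes were called lower in pool 3, with a median of −1.71, and 6 of 9 in pool 1, with a median of −1.27. The calls lost in pool 1 were ptc at −0.76 (adjusted p = 0.116) and hh at −0.98 (adjusted p = 0.0583). Leaving out any 1 replicate left 6 to 8 genes called in pool 1 and 8 in pool 3. In wild-type replicate 2, the wild-type gradient highest in these markers, 9 of 9 genes were above the group mean in both pools. Their medians against that mean were 0.42 in pool 1 and 0.19 in pool 3. In orb2-delta-zz replicate 3, the highest of its genotype, 5 of 9 genes were above it in pool 1 and 4 of 9 in pool 3. The summed late-embryo markers at 1-2h ran from 2.58 to 701 TPM in wild type and from 79.1 to 324.7 TPM in orb2-delta-zz in pool 3, and from 0.75 to 44.9 and 6.13 to 32.5 TPM in pool 1. Of the 14 listed, 0 were called between the genotypes in either pool (limma). Their median differences were 0.31 in pool 1 and 1.56 in pool 3, with 3 and 4 of 14 below 0, and their part in the result was not tested.

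**Figure D2:**
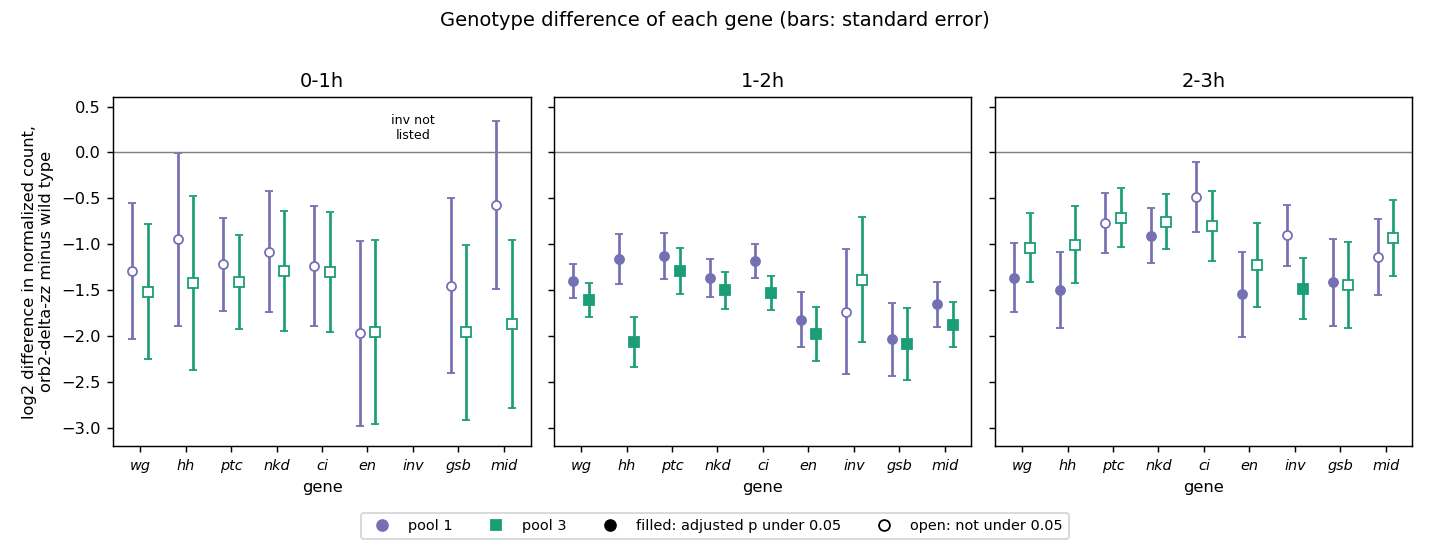
Log2 difference in normalized count between orb2-delta-zz and wild type for each gene and time, in pool 1 (circles) and pool 3 (squares), with bars for the standard error and filled symbols where the adjusted p was under 0.05. All estimates lie below 0; the bars are widest at 0-1h, and most symbols are filled at 1-2h.

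At 0-1h the 8 listed genes were all below 0 in both pools, and none passed the test (limma; 1 of 8 at an unadjusted p under 0.05 in each pool, ptc, against 21.1% of all genes in pool 1 and 16.0% in pool 3). The medians of the 8 genes were −1.23 in pool 1 and −1.47 in pool 3, with all genes at 0.02 and 0.03, and 4.42% and 3.13% of all 7533 genes were called lower. The spread between the orb2-delta-zz replicates was wide. For en in pool 3 the counts were 64.0, 148 and 140.0 in wild type and 144, 19.6 and 6.83 in orb2-delta-zz. Replicate 1 of orb2-delta-zz was within the wild-type range and the other replicates were below it, and the difference was −1.96 ± 1.01 on the log2 scale, adjusted p = 0.405. For wg in pool 3 the counts were 96.4, 206 and 152 and 164, 34.0 and 21.6, with replicate 1 again high, and the difference was −1.52 ± 0.74 on the log2 scale, adjusted p = 0.359. For ptc in pool 1, with 79.7, 124 and 88.2 in wild type and 67.7, 45.0 and 21.5 in orb2-delta-zz, the groups were apart (−1.22 ± 0.51, adjusted p = 0.19). The gene ptc in pool 1 was the 1 gene of the 8 without overlap, and no gene was without overlap in pool 3. All genes without overlap in that direction made up 10.6% in pool 1 and 9.39% in pool 3.

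The high replicate was the one of its group with the highest late-embryo markers. In wild type at 0-1h replicate 1 was highest in these markers, at 2.525 TPM in pool 1 and 26.7 TPM in pool 3. There 0 of 8 segment polarity genes were above the group mean, with medians of −0.422 and −0.725 against it. In orb2-delta-zz replicate 1 at 0-1h all 8 genes were above the mean of their group, by a median of 1.22 in pool 1 and 1.81 in pool 3 on the log2 scale, while the same medians for the pair-rule genes were 0.46 and 0.49. Without that replicate 4 of 8 genes were called lower in pool 1 (en, ci, ptc and gsb), with a median of −1.66, and 7 of 8 in pool 3, all but hh, with a median of −2.38. With replicate 3 of orb2-delta-zz left out the median was −0.69 in pool 1 and −0.94 in pool 3, and leaving out any 1 replicate other than replicate 1 of orb2-delta-zz left 0 of 8 called in either pool. Without orb2-delta-zz replicate 1 en was at −3.13 (adjusted p = 0.00581), mid at −2.98 (adjusted p = 0.015) and hh at −2.38 (adjusted p = 0.0668) in pool 3. Of the 9 late-embryo markers listed at 0-1h, 0 were called between the genotypes in either pool (limma), but their median differences were 1.28 and 1.86 in pools 1 and 3, with 1 and 0 of 9 below 0, and with summed levels of 2.37 to 26.7 TPM in wild type and 1.57 to 600.9 TPM in orb2-delta-zz in pool 3. Their part in the result was not tested.

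The 9 genes were again all below 0 at 2-3h, and how many passed the test depended on the replicates. In pool 1, 5 of 9 were called lower (en, gsb, hh, nkd and wg), where 9.48% of all 9554 genes were, and in pool 3 it was inv alone, where 4.97% were. At an unadjusted p under 0.05 there were 8 of 9 genes in each pool, against 38.6% and 32.5% of all genes. All values of orb2-delta-zz were below those of wild type for inv, wg, hh and nkd in pool 1 (4 of 9), against 16.5% of all genes, and for inv and gsb in pool 3 (2 of 9), against 13.6%. The medians of the 9 genes were −1.14 and −1.01, with all genes at −0.03 and 0.01, and 6.56% and 6.63% of all genes were at or below them. For hh in pool 1 the counts were 1154, 559 and 1372 in wild type and 542, 243 and 295 in orb2-delta-zz. The lowest wild-type library, replicate 2, was just above the highest orb2-delta-zz library, and the difference was −1.50 ± 0.42 on the log2 scale, adjusted p = 0.0228. For en in pool 1 the counts were 2474, 1042 and 3058 and 1097, 571 and 502. Here wild-type replicate 2 fell below orb2-delta-zz replicate 1, with a difference of −1.55 ± 0.46 on the log2 scale, adjusted p = 0.0302. For wg, gsb and nkd in pool 1 the differences were −1.37 ± 0.38 (adjusted p = 0.0222), −1.42 ± 0.47 (adjusted p = 0.0466) and −0.91 ± 0.30 (adjusted p = 0.0472). The call in pool 3 was inv, with 138, 120.2 and 177 in wild type and 53.2, 76.0 and 31.7 in orb2-delta-zz. The groups were apart, by −1.49 ± 0.33 on the log2 scale, adjusted p = 0.0129. The differences that missed the threshold in pool 3 ran from −0.71 for ptc to −1.45 for gsb. For ci, the most abundant of the 9, the counts were 38079, 20138 and 32144 and 25036, 16006 and 11636, and the groups overlapped, with a difference of −0.80 ± 0.38 (adjusted p = 0.17). For mid they were 2996, 1457 and 2819 and 1743, 1139 and 885, with overlap as well.

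In wild-type replicate 2 at 2-3h, the wild-type gradient highest in late-embryo markers, the 9 genes were low: none of its 9 genes was above the group mean in either pool, and their median lay at −0.80 in pool 1 and −0.58 in pool 3 against that mean. The pair-rule genes in it were at −0.63 and −0.33 and the blastoderm genes at −0.18 and 0.04. Without it 8 of 9 genes were called lower in pool 1 and 9 of 9 in pool 3, with medians of −1.62 and −1.28, among 1685 and 1555 genes called lower in all. Without wild-type replicate 1 or wild-type replicate 3, 0 of 9 were called in either pool. Without orb2-delta-zz replicate 1, 2 or 3 the counts were 5, 0 and 0 in pool 1 and 4, 1 and 0 in pool 3. With the replicate number as a block, 8 of 9 were called in pool 1, where same-numbered libraries of the genotypes deviated together. Without the gradients highest in late-embryo markers, which carried the number 2 in both genotypes, 6 of 9 were called in each pool. The late-embryo sums at 2-3h ran from 16.9 to 1338 TPM in wild type and from 203.6 to 1237 TPM in orb2-delta-zz in pool 3. Of the 18 listed, 1 was called, kkv in pool 1, lower in orb2-delta-zz by 1.66 (adjusted p = 0.0144). Their median differences were 0.04 in pool 1 and 1.62 in pool 3, and the part of these markers in the result was not tested.

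**Figure D3:**
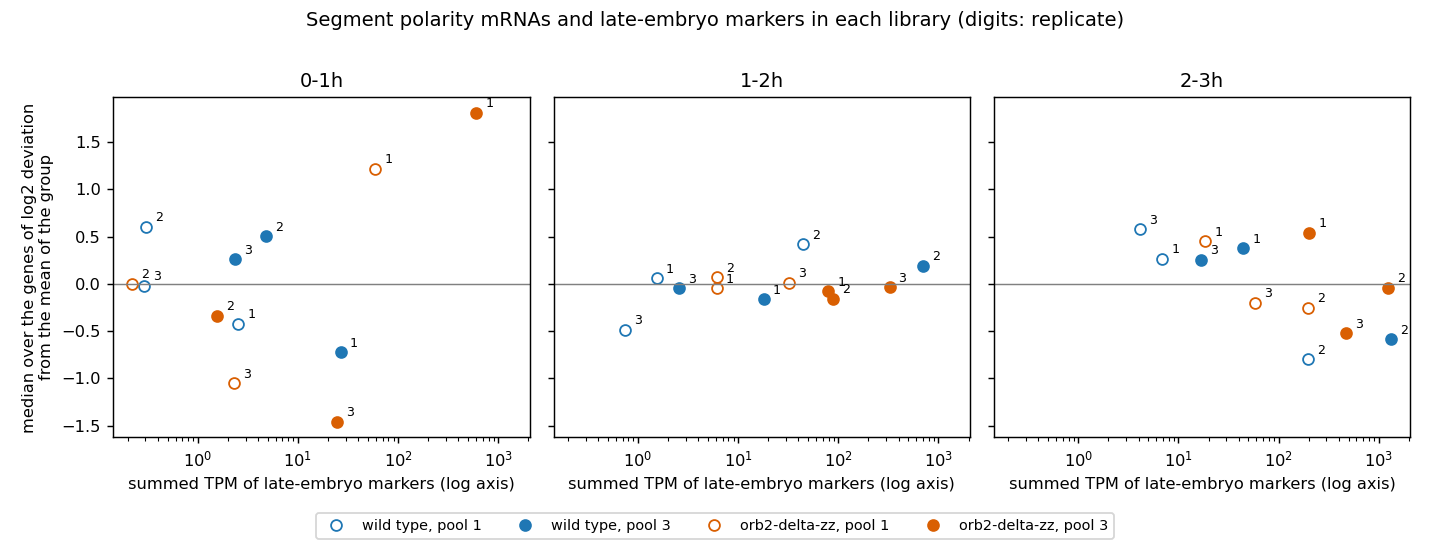
For each library, the median over the segment polarity genes of the log2 deviation from the mean of its group, against the summed TPM of the late-embryo markers (log axis), by time, with genotype in colour, pool as open or filled circles and the replicate as a digit. At 0-1h orb2-delta-zz replicate 1 is highest on both axes, and at 2-3h wild-type replicate 2 is high on the marker axis and low on the other. At 1-2h wild-type replicate 2 is high on the marker axis and above 0 on the other.

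Most other genes of the 2 pathways are known to be supplied by the mother, and few of those of the Hedgehog pathway were called. Of 19 Hedgehog pathway genes, such as smo, cos, fu and Su(fu), 18 were tested at 0-1h and 19 later, and 0 were called in either pool at 0-1h and 1-2h (limma). Their median difference was between −0.13 and 0.05 at all times and in both pools. At 2-3h the coreceptor gene dlp was lower in pool 1 (−0.80 ± 0.20, adjusted p = 0.0149), the ubiquitin ligase adaptor gene rdx was higher there (0.78 ± 0.24, adjusted p = 0.0365) and sotv, a heparan sulfate polymerase gene, was higher in pool 3 (0.60 ± 0.18, adjusted p = 0.0432). Of 26 Wingless pathway genes, 22 to 25 were tested, and at each time and in each pool 1 to 4 were called lower and at most 1 higher. At 0-1h 1 of 22 was called lower in each pool, against 4.42% of all genes in pool 1 and 3.13% in pool 3. At 1-2h it was 4 of 24 in pool 1 and 3 of 24 in pool 3, against 4.8% and 5.04%. At 2-3h it was 4 of 25 and 1 of 25, against 9.48% and 4.97%. Notum, a target of Wingless signalling whose product inactivates the ligand, was lower in all 6 comparisons, by 1.03 (adjusted p = 0.00831) to 1.79 (adjusted p = 0.013) on the log2 scale. In pool 3 at 1-2h wntD (−1.41, adjusted p = 0.00277) and pan, the nuclear effector (−0.79, adjusted p = 0.00177), were lower as well. Wnt4, which lies 29987 nt from wg and farther from it than Wnt6 at 17448 nt, was lower in pool 1 at 2-3h (−1.14 ± 0.37, adjusted p = 0.0404). Apc was higher in pool 3 at 2-3h (1.15 ± 0.26, adjusted p = 0.0124).

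Other genes that the embryo itself expresses early were lower too. Of 9 pair-rule genes, the class that acts before them, 5 were called lower in each pool at 0-1h, and 7 in pool 1 and 9 in pool 3 at 1-2h. The counts at 2-3h were 8 and 1 in the same order of pools. At 1-2h in pool 3 their median was −1.04, with opa at −1.46 ± 0.20 (adjusted p = 0.000352) and slp2 at −1.63 ± 0.28 (adjusted p = 0.00207). Of the 22 early zygotic genes of the blastoderm, 18 and 19 of the 21 tested were called lower at 0-1h, 6 and 13 of 22 at 1-2h and 19 and 13 of 22 at 2-3h, in pools 1 and 3. Among them halo, which acts in lipid droplet transport, was at −2.22 ± 0.36 (adjusted p = 0.00244) in pool 1 at 0-1h. Over all genes, 4.42% and 3.13% were called lower at 0-1h, 4.8% and 5.04% at 1-2h and 9.48% and 4.97% at 2-3h, in pools 1 and 3. Of 13 maternal mRNAs 1 was called higher in each pool at 0-1h, 2 in each at 1-2h, and 9 and 10 at 2-3h, among them vas at 1.68 ± 0.26 (adjusted p = 0.00141) in pool 1, and 0 were called lower. The share of all genes called higher is not given here, so the maternal counts stand without it. Of 6 other stripe genes, which include the paralogs gsb-n and H15, 1 was tested at 0-1h, 4 at 1-2h and 6 at 2-3h. The 1 called, in both pools at both later times, was rho, which encodes a protease that releases EGF receptor ligands. Its difference was −1.24 ± 0.20 (adjusted p = 0.00113) in pool 3 at 1-2h. At 2-3h gsb-n was at −0.79 ± 0.46 (adjusted p = 0.22) in pool 1 and H15 at −0.62 ± 0.56 (adjusted p = 0.445), so neither was called.

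The mRNAs also differed in their split between the pools. In normalized counts ptc, nkd and ci were higher in pool 3 than in pool 1 at every time and in both genotypes, and the libraries of the pools never overlapped. For ptc in wild type the pool 1 counts at 0-1h, 79.7, 124 and 88.2, stood against 639.9, 1352 and 1281 in pool 3, a log2 difference of 3.42 ± 0.51 (limma, adjusted p = 6.16e-05). It was 3.11 at 1-2h and 2.73 at 2-3h. For nkd the wild-type differences were 3.55, 2.97 and 2.54, and for ci they were 2.55, 2.17 and 1.417. In orb2-delta-zz those of ptc were 3.23, 2.95 and 2.79. In en, wg, gsb and mid the pool difference was called in some groups only, and in hh and inv in none. In wild type at 2-3h wg was at −0.63 ± 0.38, hh at −0.63 ± 0.42 and en at −0.31 ± 0.46, and none of these 3 was called.

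In all, 4 of 8, 7 of 9 and 3 of 9 genes were called higher in pool 3 in wild type at 0-1h, 1-2h and 2-3h, where 39.8%, 37.0% and 29.3% of all genes were. In orb2-delta-zz 3, 6 and 3 were, with 40.6%, 36.9% and 29.9% of all genes. With the gradient as a block, since both pools came from it, the counts were 5, 8 and 5 in wild type and 3, 7 and 4 in orb2-delta-zz. Leaving out 1 replicate moved the wild-type counts to 3 to 7 at 0-1h, with 7 without orb2-delta-zz replicate 1, to 4 to 7 at 1-2h, with 4 without wild-type replicate 3, and to 3 to 4 at 2-3h. The orb2-delta-zz counts moved to 4 to 7 at 1-2h and 2 to 4 at 2-3h. With upper-quartile scaling 4 genes were called in each genotype at 1-2h. With the gradient as a block at 2-3h in wild type inv and mid also passed in the direction of pool 3, and wg and hh passed in that of pool 1 (adjusted p = 0.0266 and 0.0354). The direction of such small differences depends on the scale. The normalized count per TPM was 2.61, 3.55 and 5.67 times as large in pool 1 as in pool 3 at the 3 times, and on the log2(TPM + 1) scale every member tested was higher in pool 3 in both genotypes at every time: wg at 2-3h in wild type was then at 1.77, hh at 1.66 and en at 2.05. That factor is shared by all genes of a library, but low levels move less on the log2(TPM + 1) scale, so the order of the genes can differ there. On that scale ptc at 5.02, nkd at 4.84 and ci at 3.83 again led at 2-3h in wild type.

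The 3 genes that led also have the longest transcripts of the 9, at 5521 nt for ptc, 5191 nt for ci and 5051 nt for nkd, longer than those of 88.0% to 90.3% of listed genes. The long transcript of inv, at 4776 nt, went with a smaller pool difference, at 0.71 ± 0.33 in wild type at 2-3h. Across the 9 genes the rank correlation of transcript length and pool difference was 0.73 at 1-2h and 0.87 at 2-3h in wild type, and across all genes it was 0.49 and 0.36. At 0-1h in wild type it was 0.786 across 8 genes and 0.597 across all genes. In orb2-delta-zz it was 0.595, 0.70 and 0.733 across the listed genes at the 3 times, and 0.626, 0.521 and 0.425 across all genes. These are correlations across genes of the same libraries, not over independent samples. Among all genes with a transcript of at least 4000 nt, 85.1% at 1-2h and 74.0% at 2-3h had a difference above 0 in wild type.

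**Figure D4:**
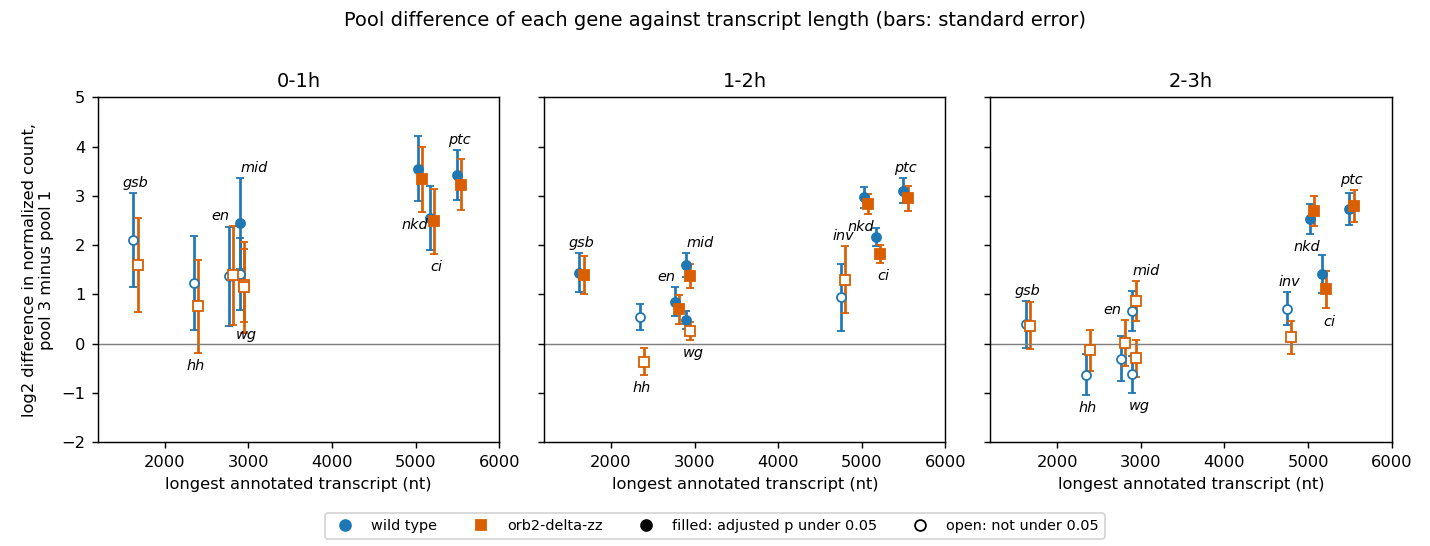
Log2 difference in normalized count between pool 3 and pool 1 for each gene against the length of its longest annotated transcript in nt, by time, in wild type (circles) and orb2-delta-zz (squares), with bars for the standard error and filled symbols where the adjusted p was under 0.05. The long mRNAs ptc, nkd and ci lie at 1.10 to 3.55, and at 2-3h they are the only filled symbols.

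Whether orb2-delta-zz changed the split between the pools was tested as the genotype difference in the pool difference. Of the listed genes 0 were called at any of the 3 times (limma; 0 of 8, 1 of 9 and 0 of 9 at an unadjusted p under 0.05, against 7.33%, 5.84% and 12.9% of all genes), where 0.518%, 0.482% and 0.136% of all genes were called. The medians were −0.22, −0.16 and 0.15. The gene at an unadjusted p under 0.05 was hh at 1-2h, at −0.91 ± 0.38 (adjusted p = 0.722), with a genotype difference of −2.06 in pool 3 and −1.16 in pool 1. For ptc, nkd and ci at 1-2h the values were −0.16 ± 0.35, −0.14 ± 0.29 and −0.35 ± 0.26. The standard errors of the 9 genes ran from 0.26 to 0.96 at 1-2h and were larger at 0-1h, from 0.722 to 1.424.

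Apart from inv, the genes deviated alike among replicates. In TPM inv was the lowest of the 9 genes in every group of 1-2h and 2-3h. Its values in pool 1 of orb2-delta-zz at 1-2h rested on about 1.99, 5.06 and 6.29 reads. The part of such low counts in its deviations was not tested. After subtraction of the mean of each group, the correlation between 2 of the genes over the libraries of 1-2h and 2-3h was 0.625 to 0.944 for the 28 pairs without inv (median 0.863), and 0.0197 to 0.485 for the 8 pairs with inv (median 0.34). These libraries share embryos, depth and any shift in age, so the correlations are descriptions and carry no test. Without that subtraction, over the 24 libraries of the 2 later times on log2(TPM + 1), the gene most like ptc among 7707 was nkd and the gene most like nkd was ptc (Pearson's r = 0.998). For en it was gsb (0.994), for hh it was en (0.992), and for inv it was tei (0.987). The mean profile of the 9 genes was most like tsh (0.998), a homeotic gene of the trunk, followed by Antp (0.996), a Hox gene, and by pxb, nub and SoxN (0.995 each). These values include the difference between the times. Of the 9 genes mid was nearest to the mean profile, at 0.998, and inv farthest, at 0.927.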

How the data were processed

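Per the submitters' processing notes, the authors used DESeq2 1.42.1, Salmon 1.9.1 and Trim Galore 0.6.5. No genome build is named in those notes or in the file headers. Normalized counts were deposited as a signal for each gene, scaled by the authors for each time on its own, and TPM (transcript abundance scaled for length and library total) were deposited for the same genes. A gene's ratio of the 2 values was constant apart from a factor shared by its library (log2 SD 0.00395 to 0.00679), so whole reads were not recovered and intervals for counting error were not computed. Depth was estimated from the steps between low values, as 19.1 to 45.5 M reads (median 34.05 M). In 32 of 36 libraries at least 80% of those values lay within 0.15 of a whole number of steps. The lowest depth among those 32 was 23.0 M reads. The library behind the inv value of about 1.99 reads was not among them, at 74.5%.

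Differences between genotypes and pools were tested per time with limma 3.58.1 (trend) in R 4.3.3, over 4 groups, on log2(normalized count + 1) of the authors' values, for genes with a mean of at least 10. Times were compared on log2(TPM + 1) for genes with a mean TPM of at least 1. Calls had a two-sided Benjamini-Hochberg adjusted p under 0.05. Tables and figures were made in Python 3.11.15 with pandas 2.3.3, numpy 2.4.6, matplotlib 3.10.9 and scipy 1.17.1. Code was tested on simulated data. The labels do not say that replicates were separate collections, so p-values measure the spread between these samples, which may be technical.

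The 9 genes, the other lists and the tests were chosen with earlier results of these data known. All 9 genes are named. From each other list at most the 3 called genes with the largest difference are named per comparison, besides orb2 and the paralogs. The pools of a gradient deviated together (r 0.12 to 0.83). Libraries with the same number in both genotypes did so in every pair only in pool 1 at 0-1h (0.15 to 0.24) and 2-3h (0.22 to 0.63). The alternatives were other pseudocounts (0.1, 0.5 and 5), no filter, quantile and upper-quartile scaling, no trend, log2(TPM + 1), only the libraries of a contrast, replicate and gradient blocks and leaving out libraries.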

Additional observations from a re-analysis of the deposited data

How the results depend on the processing

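Medians over the segment polarity genes kept their direction in all alternatives run except for the genotype differences of the pool split and of the time steps, which had no called gene, and the pool difference of orb2-delta-zz at 2-3h (−0.10 with upper-quartile scaling). The cause of the changes that follow was not tested unless given. At 2-3h the number of genes lower in orb2-delta-zz was 5 in pool 1 and 1 in pool 3. It was 7 and 2 with quantile scaling, 8 and 5 with upper-quartile scaling, 5 and 4 on log2(TPM + 1) and 4 and 1 without the trend. At 1-2h it was 8 and 8, and 6 and 8 on log2(TPM + 1). At 0-1h it was 0 and 0, also without the trend. With the replicate number as a block, 2-3h gave 8 genes in pool 1 and 9 in pool 3, where the third pair of libraries did not deviate together (r = −0.0075), and it changed no count at 0-1h or 1-2h. The gradient as a random block gave 6 and 3 at 2-3h.

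On log2(TPM + 1), where low genes move less, the median genotype difference at 0-1h was −0.24 in pool 1 and −0.96 in pool 3 (from −1.23 and −1.47), and that of the pool split was −0.82 (from −0.22). On that scale the median genotype difference at 1-2h was −0.71 in pool 1 and its difference between pools was −0.78. The median pool difference was 2.495 in wild type at 1-2h, 2.70 in wild type at 2-3h and 2.57 in orb2-delta-zz at 2-3h. Upper-quartile scaling gave pool medians of 0.98 (wild type) and 0.99 (orb2-delta-zz) at 1-2h, and leaving out 1 replicate gave 0.90 to 1.64 in orb2-delta-zz. For the step from 0-1h to 1-2h, wild-type pool 1 was at 1.88 with a pseudocount of 0.1, 0.29 with 5 and 1.47 with upper-quartile scaling, and wild-type pool 3 was at 1.12 with 5. There orb2-delta-zz pool 1 was at 1.39 with 0.1, and pool 3 was at 1.81 with 0.1, 0.495 with 5, 0.64 with quantile scaling and 0.71 to 1.63 without 1 replicate. The genotype difference of that step in pool 3 was −1.003 to −0.086 without 1 replicate, and 0.0077 without the gradients highest in late-embryo markers. For the step to 2-3h, wild-type pool 1 was at 2.75 with 0.1, 1.10 with 5, 2.996 with quantile scaling, 3.46 with upper-quartile scaling, 1.88 to 2.52 without 1 replicate and 2.63 without those gradients, which left wild-type pool 3 at 2.88. There orb2-delta-zz pool 1 was at 2.92, 0.72, 2.41 and 3.11 in the first 4 settings, and pool 3 at 3.35, 2.11 and 2.37 in the first 3. Its genotype difference was 0.32 in pool 1 with 0.1, and in pool 3 it was 0.093 with 5, −0.17 with quantile scaling and 0.14 with upper-quartile scaling.

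The sign of small pool differences turned in some settings, none of which was for a called gene in the fit reported. With upper-quartile scaling wg in orb2-delta-zz at 1-2h was at −0.11, gsb in wild type at 2-3h at −0.11, and en, inv and gsb in orb2-delta-zz at 2-3h at −0.45, −0.33 and −0.10. With quantile scaling en and hh there were at −0.054 and 0.077. On log2(TPM + 1) hh in orb2-delta-zz at 1-2h was at 0.53, en, wg and hh in wild type at 2-3h at 2.05, 1.77 and 1.66, and wg and hh in orb2-delta-zz at 2-3h at 2.10 and 1.94. Without the gradients highest in late-embryo markers en and inv there were at −0.11 and −0.090. Without 1 replicate en there ranged from −0.11 to 0.11, inv from −0.090 to 0.34 and hh from −0.37 to 0.032, and the genotype difference of mid in pool 1 at 0-1h ranged from −1.22 to 0.037.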
